A study of Mus musculus with 4 samples.

Results

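The genes described here are 52 genes of the bone morphogenetic protein (BMP) and transforming growth factor beta (TGF-beta) pathways, taken by gene symbol from the 52636 genes counted in each library: 13 ligands, 13 receptors, 8 Smads, 10 extracellular modulators, 4 Id genes and 4 latent TGF-beta binding proteins. All 52 were found, and all 52 passed edgeR's filter on low counts. The data are RNA-seq read counts of tdTomato+ cells that were sorted from embryonic mouse kidneys, at about E12.5 to E12.75 and about 48 h after tamoxifen was first given. The 2 Control libraries came from embryos with *Eya1*CreER and a tdTomato reporter, and the 2 *Eya1*cKO libraries from embryos that also carried floxed *Eya1* (fl/fl), so that the CreER allele, the reporter and the tamoxifen were shared by all libraries. The mice were of a mixed C57BL/6J and 129/Sv background. CreER is made where *Eya1* is expressed, which in the early kidney means mainly the nephron progenitors, so the sorted cells are those progenitors and the cells derived from them after tamoxifen, together with any other cells of the *Eya1* lineage in the dissected tissue. Each library was made from 5000 sorted cells, after cell suspensions of several embryos had been combined, so the *P* values below measure the spread between libraries and not between embryos.

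BMP and TGF-beta ligands bind pairs of type I and type II receptor kinases, which phosphorylate receptor-regulated Smads. Smad1, Smad5 and Smad9 mainly carry BMP signals and Smad2 and Smad3 mainly TGF-beta and activin signals, Smad4 is the shared partner of both, and Smad6 and Smad7 inhibit them. In the developing kidney, Bmp7 keeps nephron progenitors alive and proliferating, Bmp4 from the cells around the ureter and its antagonist Grem1 set where the ureteric bud grows and branches, and Id1 to Id4 are well-known targets of BMP signals.

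*Eya1* itself, the deleted gene, was counted 6612 and 6420 times in Control 1 and 2, and 377 and 219 times in *Eya1*cKO 1 and 2. *Six2*, the progenitor gene that marks these cells, was counted 8655 and 9150 times and 377 and 80 times in the same order. Reads counted on genes ran from 17457452 to 37999342 per library and were fewer in both *Eya1*cKO libraries, where a count of 3 reads corresponds to 0.133 and 0.171 CPM (read counts scaled to library size with edgeR's TMM factors), against 0.0859 and 0.0801 CPM in the Controls. These limits cover counting error only, because PCR copies of one molecule are not independent. Reads on no gene made up 20.9% to 22.7% of all reads recorded in the *Eya1*cKO libraries and 12.9% to 13.9% in the Controls. Marker lists of other cell types moved with the genotype. Of 10 nephron progenitor markers, 9 fell (summed level 1199 to 1210 CPM in the Control libraries and 214 to 251 CPM in *Eya1*cKO), and 5 of 6 early nephron markers fell (1239 to 1240 and 657 to 729 CPM). Of the markers tested, 8 of 8 rose for the endothelium (618 to 629 CPM in the Controls and 1068 to 1127 CPM in *Eya1*cKO), 6 of 7 for podocytes (883 to 904 and 2739 to 2812 CPM), 4 of 7 for the renal stroma (1894 to 1899 and 3613 to 3649 CPM, of which *Col3a1* alone made 962 to 965 and 2412 to 2431 CPM), 8 of 8 for the adrenal cortex (12.7 to 19.8 and 704 to 741 CPM) and 7 of 7 for sympathoadrenal cells (5.18 to 8.44 and 533 to 569 CPM). Of 8 ureteric bud markers 2 fell and none rose (summed level 296 to 300 and 198 to 203 CPM). For blood cells 3 of 7 markers could be tested and none passed (71.3 to 71.8 and 75.6 to 89.4 CPM), while the globin genes *Hba-a1* and *Hbb-bs* were listed at 0 in all 4 libraries. Reads without a unique alignment, 7.95% to 9.06% of all reads recorded, were not counted on genes. These zeros therefore do not show that globin RNA was absent. In such bulk libraries, fewer cells of a type and less RNA per cell cannot be told apart, and the part of these cell types in the results below was not tested.

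In *Eya1*cKO cells, the ligand gene *Bmp2*, the activin receptor gene *Acvr2b*, the BMP signal carrier *Smad5* and the target gene *Id1* were lower than in Control cells, and the ligand genes *Gdf10* and *Tgfb2*, the receptor genes *Tgfbr2*, *Tgfbr3*, *Acvrl1* and *Eng*, the secreted protein gene *Fstl1* and the latent binding protein gene *Ltbp4* were higher. The changes ran from a log2 fold change of -1.65 for *Bmp2* to 3.67 for *Gdf10*. These 12 were the members with an adjusted *P* under 0.05 in edgeR's quasi-likelihood test over all 19041 genes tested, 4 lower and 8 higher. They were 23.1% of the members, where 9.56% of all genes tested passed. By direction, 7.69% of the members were lower and 15.4% higher, against 4.41% and 5.15% of all genes. Most members are abundant, and the test passes abundant genes more often: of the 32 members with a mean of at least 1000 reads per library 10 passed (31.2%), against 19.8% of all 6436 genes at that level, a cut chosen after the data were seen. The median log2 fold change was -0.06 over the members and 0.016 over all genes tested. Both *Eya1*cKO libraries lay below both Controls in 18 members (34.6%, against 30.0% of all genes) and above both in 16 (30.8%, against 25.3%), and in the other 18 members the genotypes overlapped.

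The number of members past the threshold depended on the settings and on which libraries were tested. It was 7 in place of 12 without the low-count filter, with edgeR's legacy method, and with the Control counts thinned to the *Eya1*cKO depth, 14 when every library was required to hold 10 counts, and 15 with DESeq2. With an *Eya1*cKO library left out, the lone one is assumed to vary like the Controls, whose spread was the smaller. Such fits leave out the spread between the *Eya1*cKO libraries, so only effect sizes are given here. *Bmp2* had a log2 fold change of -1.84 without *Eya1*cKO 1 and -1.54 without *Eya1*cKO 2, and *Gdf10* had 3.81 and 3.51. The 12 members past the threshold on all 4 libraries kept their direction in both fits. With Control 1 or Control 2 left out, the lone Control is assumed to vary like the *Eya1*cKO libraries, and the calls of the 12 members did not hold. In edgeR's test on all 4 libraries, 20 of the 52 members had an unadjusted *P* under 0.05, as had 5479 of all 19041 genes tested.

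**Figure D1:**
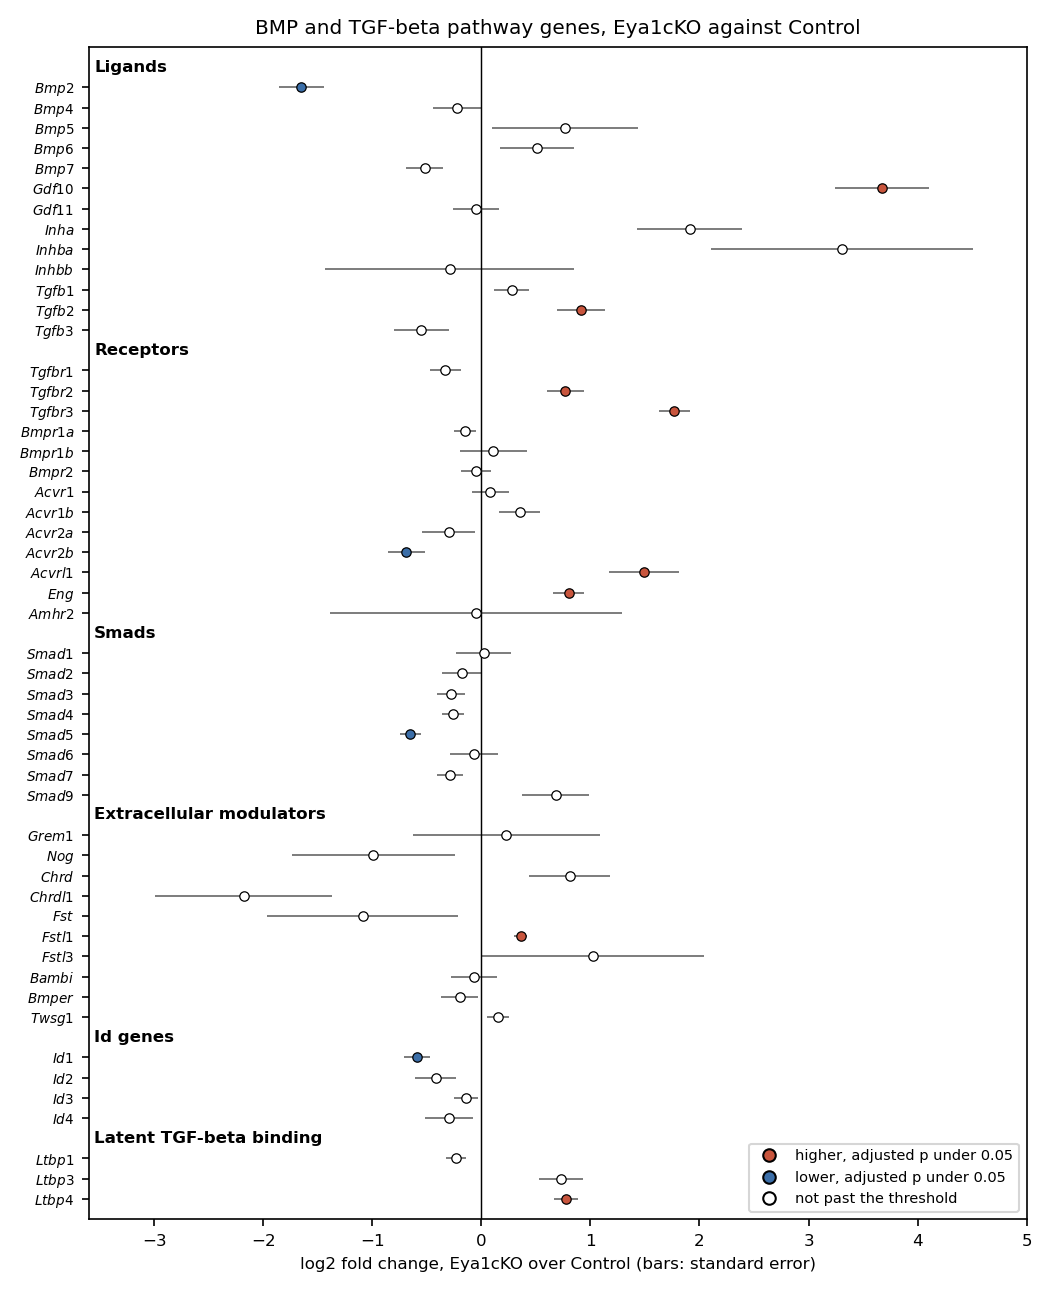
The log2 fold change of *Eya1*cKO over Control (x axis, with its standard error from edgeR as bars) is plotted for 51 members by role, red where higher and blue where lower at an adjusted *P* under 0.05 and white otherwise. *Gdf10* lies farthest to the right at 3.67, *Bmp2* is the lowest of the coloured points at -1.65, and *Ltbp2*, which had no read in either *Eya1*cKO library, is left out.

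Among the ligands, 1 of 13 fell and 2 rose. *Bmp2*, on chromosome 2 from 133552159 to 133562885 of GRCm38, encodes a BMP ligand, and its level was 57.9 and 58.0 CPM in Control 1 and 2 and 20.1 and 16.3 CPM in *Eya1*cKO 1 and 2. It was 3.14-fold lower in *Eya1*cKO, and the libraries of a genotype lay close together (log2 fold change -1.65 ± 0.21 SE, adjusted *P* = 0.006 in edgeR). *Gdf10*, on chromosome 14 from 33923587 to 33937983, encodes a secreted protein related to Bmp3 and was hardly expressed in the Controls, with 61 and 84 reads, against 523 and 499 reads in *Eya1*cKO. This was 1.75 and 2.24 CPM in the Controls, against 23.1 and 28.4 CPM in *Eya1*cKO, the largest change of the members past the threshold (log2 fold change 3.67 ± 0.43 SE, adjusted *P* = 0.0047). *Tgfb2*, on chromosome 1 from 186622792 to 186705989, encodes one of the TGF-beta ligands and went from 29.4 and 36.2 CPM to 52.8 and 72.7 CPM (0.91 ± 0.22 SE, adjusted *P* = 0.048). Its call was lost without the low-count filter, with edgeR's legacy method and with the Control counts thinned to the *Eya1*cKO depth.

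The other ligands did not pass the threshold. *Bmp7*, the progenitor survival factor, had 162 and 159 CPM in the Controls, against 132 and 87.4 CPM in *Eya1*cKO, below both Controls but with *Eya1*cKO libraries that differed from each other more than the nearer one differed from the Controls (log2 fold change -0.52 ± 0.17 SE, adjusted *P* = 0.11 in edgeR). *Bmp4* was at 48.6 and 49.5 CPM in the Controls and on either side of them in *Eya1*cKO, at 33.9 and 52.3 CPM. *Gdf11*, a ligand that acts upstream of *Gdnf* in kidney induction, overlapped as well, with 46.4 and 52.7 CPM against 40.3 and 56.8 CPM. *Tgfb1* had 49.1 and 48.0 against 55.8 and 62.6 CPM and *Tgfb3* 37.4 and 36.4 against 20.2 and 31.5 CPM, with adjusted *P* values of 0.29 and 0.2, so the ranges were apart for both, in opposite directions. An antisense gene overlaps 12.4% of the exonic bases of *Tgfb3*. *Bmp6* had a log2 fold change of 0.51 ± 0.34 SE. *Bmp5* was at 4.12 and 3.39 CPM in the Controls, against 3.27 and 10.3 CPM in *Eya1*cKO, and an antisense gene overlaps 46.7% of its exonic bases, where reads of these genes cannot be told apart because the strand setting of the counting is not stated.

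The subunits of activins and inhibin were scarce. *Inha*, which encodes the alpha subunit of inhibin and is a known product of adrenal cortex cells, had 172 and 150 reads in the Controls and 277 and 392 in *Eya1*cKO (4.93 and 4.01 against 12.3 and 22.3 CPM). Both *Eya1*cKO libraries were higher than both Controls, and the difference did not pass the threshold in edgeR (log2 fold change 1.91 ± 0.48 SE, adjusted *P* = 0.053), although it did with DESeq2, and also when every library was required to hold 10 counts (adjusted *P* from 0.0021 to 0.11 over the alternatives on all libraries). For *Inhba*, an activin subunit, 29 and 50 reads were counted in the Controls, 425 in *Eya1*cKO 1 and 15 in *Eya1*cKO 2, so its log2 fold change of 3.31 ± 1.20 SE (adjusted *P* = 0.13 in edgeR) came from a single library and turned to -0.36 without it. DESeq2's Wald test passed *Inhba* all the same. *Inhbb*, another activin subunit, had 74 and 52 reads in the Controls and 0 and 57 in *Eya1*cKO, so that the *Eya1*cKO libraries lay below and above the Controls.

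**Figure D2:**
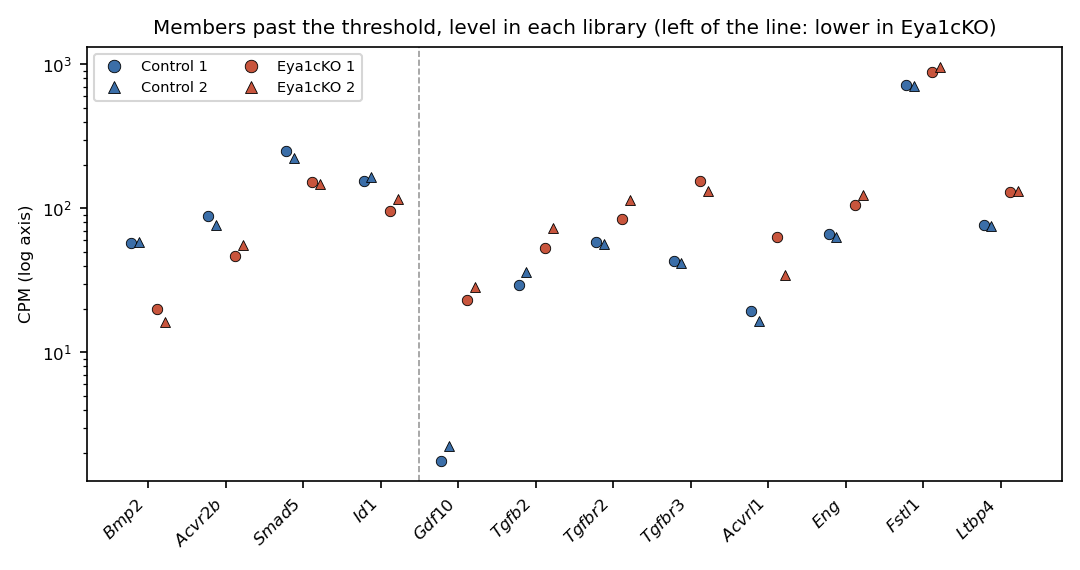
The level of the 12 members past the threshold is plotted in each library in CPM on a log axis, Controls in blue and *Eya1*cKO in red, with circles for libraries numbered 1 and triangles for those numbered 2. The genotypes do not overlap for any of the 12, and the gap is widest for *Gdf10* (1.75 and 2.24 against 23.1 and 28.4 CPM) and narrowest on this axis for *Fstl1*.

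Of the 13 receptors, 4 rose and 1 fell. Those that rose were *Tgfbr2* and *Tgfbr3*, which bind TGF-beta, and *Acvrl1* and *Eng*, best known from endothelial cells. *Tgfbr3*, on chromosome 5 from 107106570 to 107289629, encodes betaglycan, a co-receptor that presents TGF-beta2 and binds inhibin, and its level was 43.4 and 41.7 CPM in the Controls, against 155 and 133 CPM in *Eya1*cKO. That is 3.41-fold higher (log2 fold change 1.77 ± 0.14 SE, adjusted *P* = 0.0011 in edgeR). *Tgfbr3* is also among the podocyte genes that the study selected on these samples, so its direction is no independent evidence. *Tgfbr2*, on chromosome 9 from 116084293 to 116175360, is the type II receptor for TGF-beta and rose from 58.7 and 56.6 to 84.7 and 114 CPM (0.77 ± 0.17 SE, adjusted *P* = 0.037). *Acvrl1*, on chromosome 15 from 101128522 to 101145336, encodes the type I receptor Alk1 of endothelial cells, and went from 19.5 and 16.6 CPM to 63.5 and 34.7 CPM, high in both *Eya1*cKO libraries but unequally so (1.49 ± 0.32 SE, adjusted *P* = 0.033). The calls of *Tgfbr2* and *Acvrl1* were lost without the low-count filter, with the legacy method and with thinned Controls. *Eng*, on chromosome 2 from 32646595 to 32682669, encodes endoglin, the co-receptor that works with Alk1 in the endothelium, and had 66.5 and 62.9 CPM in the Controls, against 105 and 123 CPM in *Eya1*cKO (0.80 ± 0.14 SE, adjusted *P* = 0.015).

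*Acvr2b*, on chromosome 9 from 119402118 to 119434995, encodes a type II receptor for activins and related ligands and was the receptor that fell, from 88.0 and 76.1 CPM in the Controls to 46.7 and 55.4 CPM in *Eya1*cKO (log2 fold change -0.69 ± 0.17 SE, adjusted *P* = 0.046 in edgeR). Its call was lost with library totals alone, without the low-count filter, with the legacy method and with thinned Controls (adjusted *P* from 0.012 to 0.13 over the alternatives on all libraries). *Bmpr1a*, *Bmpr1b*, *Bmpr2* and *Acvr1* did not pass. *Bmpr1a*, the main BMP type I receptor of nephron progenitors, was at 186 and 172 CPM against 158 and 164 CPM, with a log2 fold change of -0.15 ± 0.10 SE. *Bmpr2* had 190 and 171 against 198 and 147 CPM, *Bmpr1b* a log2 fold change of 0.11 ± 0.31 SE and *Acvr1* of 0.08 ± 0.17 SE, all with overlapping genotypes. For *Tgfbr1*, *Acvr1b* and *Acvr2a*, a type I receptor for TGF-beta, one for activin and a type II receptor, the log2 fold changes were -0.33, 0.35 and -0.30, with adjusted *P* values from 0.18 to 0.46. *Amhr2*, the receptor for anti-Müllerian hormone, had 17 and 37 reads in the Controls and 0 and 29 in *Eya1*cKO.

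The receptors that rose can be set beside the markers of the cells known to make them. The 8 endothelial markers had log2 fold changes from 0.63 for *Tek* to 1.10 for *Esam*, with a median of 0.81, and *Eng* and *Acvrl1* had 0.80 and 1.49. The calls of the markers *Pecam1*, *Tek*, *Flt1* and *Esam* were lost with thinned Controls and also without the low-count filter. The 7 podocyte markers had a median log2 fold change of 2.06, from 0.23 for *Wt1*, which did not pass, to 2.81 for *Ptpro*, and *Tgfbr3* had 1.77. The 8 adrenal cortex markers ran from 3.58 for *Star* to 9.77 for *Hsd3b1*, while *Inha* had 1.91. All 8 endothelial markers were expressed in the Controls too, and none of the markers of these lists was at 0 in any library. What part these cells had in the receptor changes was not tested.

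**Figure D3:**
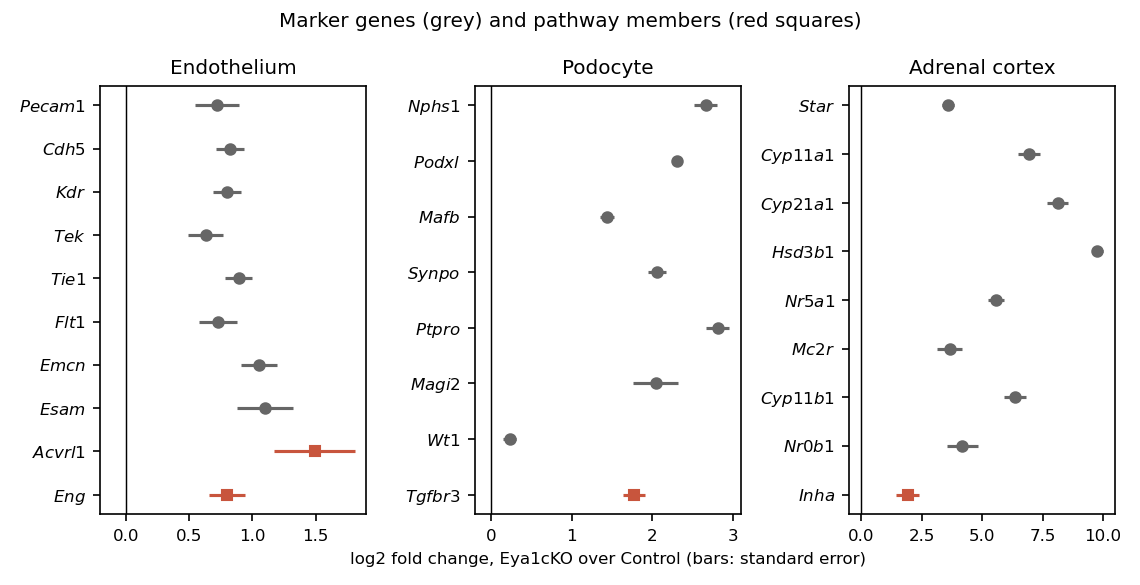
Log2 fold changes of *Eya1*cKO over Control (x axis, bars are standard errors from edgeR) are plotted for the endothelial, podocyte and adrenal cortex marker genes as grey circles and for 4 members as red squares. *Eng* at 0.80 lies within the range of the endothelial markers, *Acvrl1* at 1.49 lies above it, *Tgfbr3* at 1.77 lies within that of the podocyte markers, and *Inha* at 1.91 lies below all adrenal cortex markers.

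Of the 8 Smads, 1 fell and none rose. *Smad5*, on chromosome 13 from 56703010 to 56742377, carries BMP signals and had 249 and 224 CPM in the Controls, against 153 and 147 CPM in *Eya1*cKO. The 2 *Eya1*cKO libraries differed little from each other (log2 fold change -0.65 ± 0.10 SE, adjusted *P* = 0.011 in edgeR). Its close relative *Smad1* did not follow: it had 63.3 and 56.7 CPM in the Controls, 45 CPM in *Eya1*cKO 1 and 79.9 CPM in *Eya1*cKO 2, below and above the Controls. Its log2 fold change was 0.02 ± 0.25 SE on all 4 libraries, -0.43 without *Eya1*cKO 2 and 0.40 without *Eya1*cKO 1. *Smad9*, the third of the BMP Smads, was at 22.8 and 24.1 CPM in the Controls and at 47.7 and 25 CPM in *Eya1*cKO, above both Controls in both libraries but by little in *Eya1*cKO 2 (0.68 ± 0.31 SE, adjusted *P* = 0.2). The TGF-beta Smads *Smad2* and *Smad3* had log2 fold changes of -0.18 and -0.28 and the shared partner *Smad4* of -0.26, with adjusted *P* values from 0.13 to 0.56. The inhibitory Smads did not pass either. *Smad6* was at 41.8 and 43.7 against 33.7 and 49.8 CPM and *Smad7* at 99.1 and 102 against 85.9 and 78.3 CPM, so that *Smad7* was below both Controls and *Smad6* overlapped them.

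Smads bind DNA at a short palindrome, GTCTAGAC, and at GC-rich elements such as GGCGCC, and both can be read in the start regions of these genes. RefSeq start regions (GRCm38.p6, 250 bases before to 30 after the start) were matched for 39 of the 52 members. Both motifs are palindromes, so each match counts for both strands, and they cannot overlap each other in letters. GGCGCC was in the windows of 12 of the 39 members and in those of 12.4% of all 27025 genes with a window. It was found for 3 of 8 members past the threshold that had a window and for 9 of the other 31. GTCTAGAC was in 1 member, *Smad6*, and in 0.226% of all genes. Such matches describe the sequence and say nothing of binding. The windows shown are those of *Smad6*, the single member with the palindrome, and of *Smad5*, *Gdf10* and *Ltbp4*, the members past the threshold that hold GGCGCC, printed 5′ to 3′ with the motif in capitals. In that order they are on chr9:64022030-64022309 (minus strand), where the match begins 4 bases before the start, chr13:56702802-56703081 (plus strand, 19 bases before a start inside the annotated *Smad5*), chr14:33923337-33923616 (plus strand, 16 bases after) and chr7:27333634-27333913 (minus strand, 169 bases before a start that lies inside the annotated *Ltbp4*). A second RefSeq window overlaps that of *Smad5* and holds the same match 23 bases after its start, and one that overlaps that of *Ltbp4* holds it 184 bases before.
Smad6: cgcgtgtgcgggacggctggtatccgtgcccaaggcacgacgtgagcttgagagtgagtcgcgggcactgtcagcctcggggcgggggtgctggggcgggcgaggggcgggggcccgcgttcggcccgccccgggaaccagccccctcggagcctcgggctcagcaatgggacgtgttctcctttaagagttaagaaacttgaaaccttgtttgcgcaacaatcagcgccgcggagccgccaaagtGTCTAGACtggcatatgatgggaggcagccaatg
Smad5: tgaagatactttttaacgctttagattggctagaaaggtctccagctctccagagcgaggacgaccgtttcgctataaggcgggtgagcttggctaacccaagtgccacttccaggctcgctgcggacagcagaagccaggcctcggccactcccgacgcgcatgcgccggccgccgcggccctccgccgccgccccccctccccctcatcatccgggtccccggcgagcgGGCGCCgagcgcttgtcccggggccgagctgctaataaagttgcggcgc
Gdf10: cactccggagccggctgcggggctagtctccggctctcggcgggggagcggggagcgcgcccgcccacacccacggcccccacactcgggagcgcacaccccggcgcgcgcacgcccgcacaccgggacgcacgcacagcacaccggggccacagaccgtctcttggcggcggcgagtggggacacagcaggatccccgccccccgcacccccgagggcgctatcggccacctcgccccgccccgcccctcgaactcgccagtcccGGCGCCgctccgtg
Ltbp4: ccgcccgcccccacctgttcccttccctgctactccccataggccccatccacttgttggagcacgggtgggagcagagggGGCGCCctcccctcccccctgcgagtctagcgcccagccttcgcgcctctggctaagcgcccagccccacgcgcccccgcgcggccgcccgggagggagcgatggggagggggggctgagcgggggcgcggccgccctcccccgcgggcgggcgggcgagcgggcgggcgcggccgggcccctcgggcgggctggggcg

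The 4 Id genes, which encode inhibitors of basic helix-loop-helix factors, all had log2 fold changes below 0, and 1 of them passed. *Id1*, on chromosome 2 from 152736251 to 152737410, fell from 155 and 164 CPM in the Controls to 95.9 and 117 CPM in *Eya1*cKO (log2 fold change -0.59 ± 0.12 SE, adjusted *P* = 0.031 in edgeR), and its call was lost without the low-count filter, with the legacy method and with thinned Controls. *Id2* had 292 CPM in both Controls and 268 and 163 CPM in *Eya1*cKO, so it was below the Controls in both libraries and most of its difference lay in *Eya1*cKO 2 (-0.42 ± 0.19 SE, adjusted *P* = 0.2). *Id4* was also lower mainly in *Eya1*cKO 2, with 75.6 and 73.4 against 73.9 and 43.9 CPM, and its genotypes overlapped. *Id3* was at 194 and 195 CPM against 161 and 193 CPM, a log2 fold change of -0.14 ± 0.11 SE, which set it close to the Controls in *Eya1*cKO 2. Per kilobase of exon, the summed level of the 4 genes was 381 and 389 CPM in the Controls, against 302 and 287 CPM in *Eya1*cKO.

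Among the 10 extracellular modulators, 1 rose and none fell. *Fstl1*, on chromosome 16 from 37776873 to 37836514, encodes a secreted follistatin-like glycoprotein and was the most abundant of all members per kilobase of exon, at 146 ± 1.79 CPM in the Controls and 188 ± 11.1 CPM in *Eya1*cKO (SD, n = 2 each). Its counts gave 724 and 711 CPM against 885 and 962 CPM, the smallest change among the members past the threshold (log2 fold change 0.36 ± 0.06 SE, adjusted *P* = 0.018 in edgeR). The moderately expressed *Twsg1*, *Bmper* and *Bambi*, which encode 2 secreted BMP-binding proteins and a decoy receptor without a kinase domain, had log2 fold changes of 0.15, -0.20 and -0.07 with standard errors from 0.10 to 0.21. *Chrd*, the antagonist chordin, was at 7.70 and 12.3 against 16.2 and 19.5 CPM (0.81 ± 0.37 SE, adjusted *P* = 0.2).

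The remaining antagonists rested on few reads. *Chrdl1*, a chordin-like antagonist, had 147 and 173 reads in the Controls and 33 and 6 in *Eya1*cKO, below both Controls (log2 fold change -2.18 ± 0.81 SE, adjusted *P* = 0.13 in edgeR). *Nog* (noggin) had 132 and 205 reads against 23 and 71, *Fst* (follistatin) 212 and 114 against 13 and 72, *Grem1* 100 and 60 against 93 and 11, and *Fstl3* 50 and 94 against 15 and 147. Once scaled to depth, the genotypes overlapped for all 4 of these, and the *Eya1*cKO libraries differed from each other by more than the Controls did. An antisense gene also overlaps 47.3% of the exons of *Fstl3*.

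**Figure D4:**
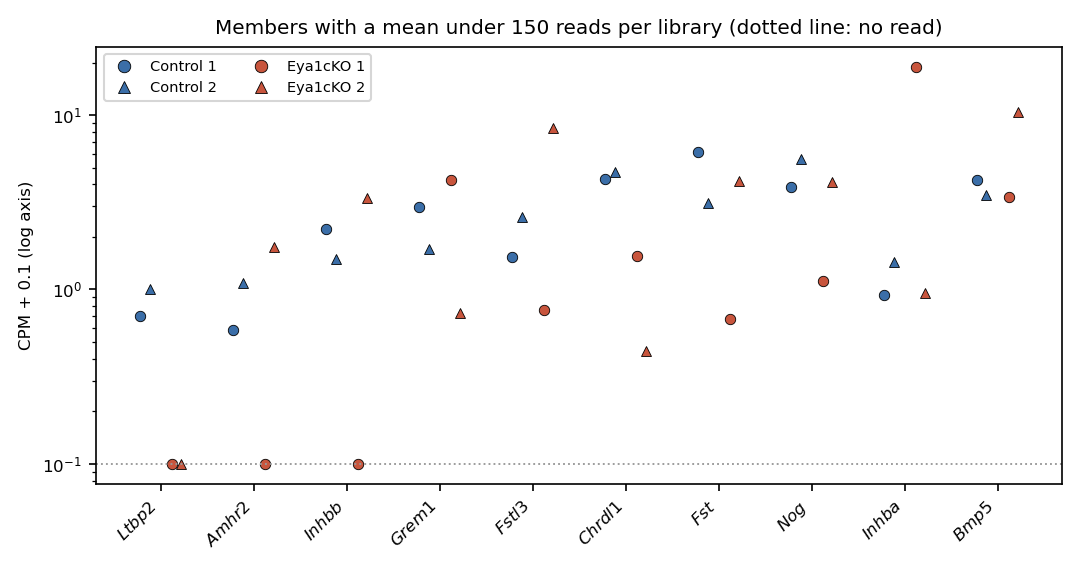
The 10 members with a mean under 150 reads per library are plotted in each library as CPM plus 0.1 on a log axis, Controls in blue and *Eya1*cKO in red, with the dotted line marking no read. *Eya1*cKO 1 and 2 stand far apart for most of these genes, as for *Inhba* (18.8 and 0.855 CPM), and only for *Ltbp2* and *Chrdl1* are both below both Controls.

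The latent TGF-beta binding proteins tie secreted TGF-beta to the matrix, and 1 of the 4 rose. *Ltbp4*, on chromosome 7 from 27305136 to 27337692, was at 76.9 and 75.9 CPM in the Controls, against 130 and 133 CPM in *Eya1*cKO (log2 fold change 0.78 ± 0.11 SE, adjusted *P* = 0.0086 in edgeR), with very little spread within a genotype. *Ltbp3* was higher in both *Eya1*cKO libraries but unequally, with 86.8 and 90.4 against 177 and 112 CPM (0.73 ± 0.20 SE, adjusted *P* = 0.069), and it passed with DESeq2, and also when every library was required to hold 10 counts (adjusted *P* from 0.014 to 0.15). *Ltbp1*, the most abundant of the 4 per kilobase of exon, had 329 and 341 against 304 and 264 CPM (-0.23 ± 0.09 SE, adjusted *P* = 0.15). *Ltbp2* had 21 and 34 reads in the Controls and 0 and 0 in *Eya1*cKO, which is at least 4.41-fold lower against the limit of 3 counts per library and did not pass (adjusted *P* = 0.11). Among 4036 genes that averaged 20 to 80 reads in the Controls, 9.19% had no read in both *Eya1*cKO libraries, 19.9% had none in *Eya1*cKO 1 and 24.4% none in *Eya1*cKO 2, whereas 0.297% and 0.471% had none in Control 1 and 2.

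Between genes, levels were compared per kilobase of exon. In the Controls the order began with *Fstl1* (146 ± 1.79 CPM per kb), *Id1* (137 ± 5.37), *Id2* (120 ± 0.00272) and *Id3* (108 ± 0.513), followed at a distance by *Smad4* (50.2 ± 1.14) and *Bmp7* (39.8 ± 0.51; SD, n = 2). *Smad5* (31.8 ± 2.35), *Ltbp1* (31.3 ± 0.754) and *Smad3* (30.5 ± 1.65) came next and did not differ beyond their spread, nor did *Tgfbr1* (28.7 ± 1.28) and *Bmpr1a* (28.2 ± 1.55). At the lower end were *Amhr2* (0.368 ± 0.177), *Inhba* (0.169 ± 0.0559) and *Ltbp2* (0.0922 ± 0.0265). In *Eya1*cKO, *Fstl1* (188 ± 11.1) stood clear of *Id3* (98.8 ± 12.8), *Id1* (91.8 ± 12.8) and *Id2* (88.4 ± 30.4), and these 3 did not differ beyond their spread.

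The make-up of several sets differed between the genotypes. Among the 7 BMP and GDF ligands, *Bmp2* made up 17.4% and 17.2% of the summed level per kilobase in the Controls and 7.74% and 6.12% in *Eya1*cKO, and *Gdf10* 0.358% and 0.455% against 6.07% and 7.29%. *Bmp7* held the largest part in the Controls, at 42.9% and 41.7%, whereas in *Eya1*cKO it was at 44.9% in one library and 29.0% in the other. Among the TGF-beta ligands *Tgfb3* was the largest in the Controls (42.7% and 40.6%) and the smallest in *Eya1*cKO (22.8% and 27.2%), and *Tgfb2* went from 19.6% and 23.6% to 34.9% and 36.6%. For the type II receptors, *Acvr2b* accounted for 47.7% and 45.1% in the Controls and 30.0% and 34.3% in *Eya1*cKO, and *Tgfbr2* for 15.3% and 16.1% against 26.1% and 33.9%. Shares within a set are tied to each other, so they restate the values above and were not tested.

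**Figure D5:**
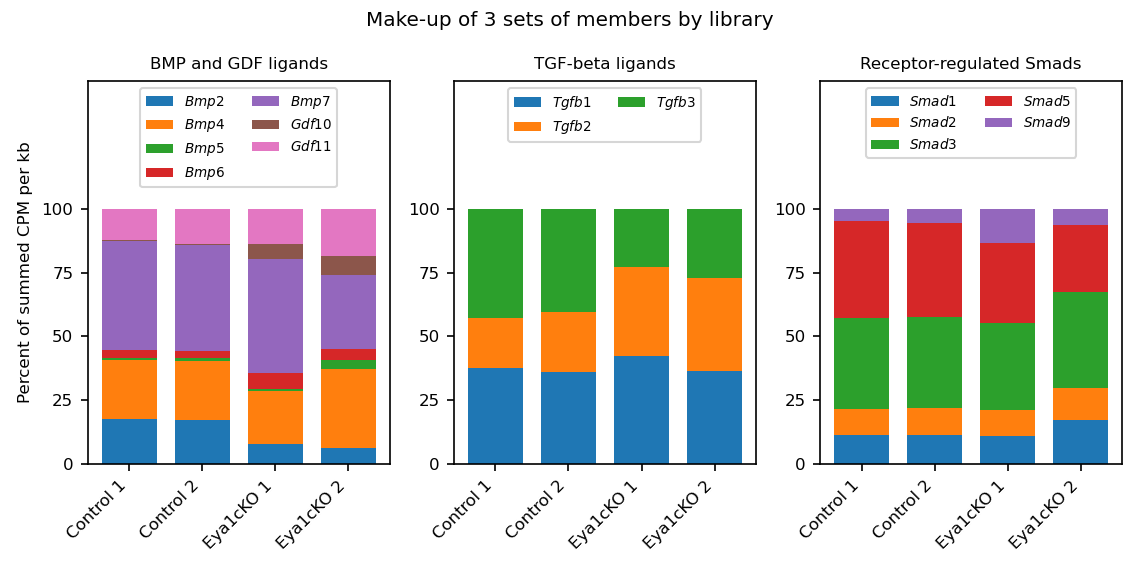
Stacked bars give each gene's percent of the summed CPM per kilobase within its set, for each of the 4 libraries, in 3 sets. The parts of *Bmp2* and *Tgfb3* are smaller and those of *Gdf10* and *Tgfb2* larger in both *Eya1*cKO bars, and the part of *Bmp7* is smaller in *Eya1*cKO 2 alone (29.0%).

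The *Eya1*cKO libraries differed from each other more than the Controls did. Over the 32 members with a mean of at least 1000 reads, the absolute log2 ratio between the libraries of a genotype had a median of 0.06 in the Controls and 0.31 in *Eya1*cKO. It was over 0.5 for none of them in the Controls and for 8 in *Eya1*cKO, 4 in each direction. All 6436 genes at that level had medians of 0.07 and 0.24. Among the members that were higher in *Eya1*cKO 1 than in *Eya1*cKO 2 were *Id2* (268 and 163 CPM), *Id4* (73.9 and 43.9), *Bmp7* (132 and 87.4) and *Acvrl1* (63.5 and 34.7), and among those that were lower were *Smad1* (45 and 79.9) and *Bmp4* (33.9 and 52.3).

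Another 85 genes of the pathways were taken from a list that holds none of the members. Of these, 66 could be tested, 4 fell and 8 rose, which is 18.2% against the 9.56% of all genes tested. Genes with a mean of at least 1000 reads passed more often (19.8%), and this list was not split by abundance. Without the low-count filter or with edgeR's legacy method, 6 of these other pathway genes passed, and fewer of all genes passed as well. Of the 20 further ligands 6 had no read in any library, 7 could be tested and *Bmp3* rose from 14.4 ± 3.16 CPM in the Controls to 34.9 ± 9.71 CPM (SD, n = 2 each), a log2 fold change of 1.30 ± 0.30 SE (edgeR, adjusted *P* = 0.044). Of 15 antagonists and processing factors tested, *Crim1*, a membrane protein that binds BMPs, *Bmp1*, the protease that cleaves chordin, and *Tmeff2* rose (0.70, 0.68 and 2.42), and *Tmeff1* fell by 0.71. Among 11 genes of latency and matrix storage 3 rose and none fell, namely *Fbn1* (fibrillin-1, 187 ± 3.43 to 296 ± 13.4 CPM) and the proteoglycan genes *Dcn* and *Bgn* (24.0 ± 3.31 to 110 ± 10.2 CPM and 62.3 ± 4.71 to 122 ± 18.6 CPM). Within the 17 intracellular regulators only the corepressor gene *Tgif1* passed, with -0.66 (adjusted *P* = 0.038), and *Smurf1*, *Smurf2*, *Ski* and *Skil*, which encode ubiquitin ligases and corepressors acting on Smads, had log2 fold changes from 0.01 to 0.10. Of 14 genes tested that respond to these ligands in other settings, *Hey1* and *Xylt1* fell (-1.12 and -1.94) and *Acta2*, smooth muscle actin, rose (1.09). The 7 renal stroma markers had log2 fold changes from -0.27 for *Ntn1*, which did not pass, to 1.33 for *Col3a1*, with a median of 0.51 and 4 that rose, and the part of stromal cells in these genes was not tested.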

How the data were processed

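RNA-seq was performed by the authors on 4 libraries, 2 Control and 2 *Eya1*cKO, each from 5000 FACS-sorted tdTomato+ cells, with a random-primed strand-specific SMARTer kit. Reads were mapped to mm10 with HISAT2 and counted on Ensembl release 90 genes with HTSeq-count, and the values deposited by the authors are these read counts per gene, not normalized. The strand setting and the tool versions are not given in the sources used here. The labels give 6 kidneys per genotype, whereas the methods describe a pool of suspensions. The paper calls the 2 libraries of a genotype biological replicates, made from separate lots of 5000 cells that were sorted at the same time. On that description the libraries of a genotype may share embryos, and replication between embryos is not shown. Rows that name no gene held 31.8% to 46.1% of the recorded reads and were left out.

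Of 52636 gene IDs, 52403 were paired with a symbol. Gene coordinates and exonic lengths are from GENCODE M21 (GRCm38, the build of mm10), a later release than the one counted on, and promoter sequences from RefSeq (GRCm38.p6). Counts were tested in R 4.3.3 with edgeR 4.0.16: filterByExpr with a minimum count of 10, TMM factors from 0.9868 to 1.019, glmQLFit and glmQLFTest (legacy = FALSE) on genotype over all 4 libraries, and Benjamini-Hochberg adjustment over the 19041 genes tested at 0.05. Log2 fold changes give *Eya1*cKO relative to Control, and their standard errors (SE) were taken from the F statistics. The libraries of a genotype differed by more than counting noise, so none was taken for a library deposited a second time, which does not show that they are separate biological samples.

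The members, marker lists and other gene lists were chosen with earlier results of these data known, so no *P* over a list is given. Members past the threshold, or with 3 reads or fewer in each library of a genotype, were named with their values per library and the others by values or ranges within their role. Of the other pathway genes, the 12 with the largest change among those past the threshold were named. 1 marker gene of the lists is not reported here. The *Smurf* and *Ski* genes and the marker genes were named after their values were seen. *Ctgf* and *Hjv* of the list are *Ccn2* and *Hfe2* in the files. Alternatives were DESeq2's size factors, library totals, no filter (at least 1 read), at least 10 counts in every library, DESeq2 1.42.0's Wald test, edgeR's legacy method, a replicate block, Control counts thinned to a total of 19848372, and each library left out.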

Additional observations from a re-analysis of the deposited data

How the results depend on the processing

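Genes past the threshold numbered 1820 of all genes (839 lower, 981 higher), 12 members (4 and 8) and 12 other pathway genes (4 and 8). Without the low-count filter these were 1055 (507 and 548), 7 (2 and 5) and 6 (2 and 4), and with edgeR's legacy method 1096 (515 and 581), 7 (2 and 5) and 6 (2 and 4). With thinned Controls they were 1172 of all genes (606 higher) and 7 members (2 and 5), with 2 other pathway genes lower. DESeq2's Wald test passed 3102 genes (1294 and 1808). With the replicate number as a block, 621 genes (263 and 358), 5 members (2 and 3) and 4 other pathway genes (1 and 3) passed; the numbers do not pair the libraries by design, and the deviations of equally numbered libraries correlated at 0.00905. *Amhr2*, at -0.05, turned to 0.18, 0.15 and 0.09 with DESeq2, the legacy method and the block.

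Leaving out 1 library gave 23 to 7925 genes (7 to 3482 lower, 15 to 4443 higher), 0 to 29 members (0 to 17 and 0 to 14) and 0 to 31 other pathway genes (0 to 10 and 0 to 21). The members' median ran from -0.15 to 0.04. Members whose remaining *Eya1*cKO libraries all lay below the remaining Controls numbered 20 to 30, and those above 16 to 26. Such separation is easier to reach for any gene with fewer libraries, and no share of all genes is given here. These counts therefore cannot be compared with the 18 below and 16 above on all 4 libraries. Log2 fold changes that changed sign ran from -0.55 to 0.08 for *Bmp4*, -0.21 to 1.45 for *Bmp5*, -0.32 to 0.18 for *Gdf11*, -0.36 to 4.09 for *Inhba*, -8.79 to 0.89 for *Inhbb*, -0.07 to 0.28 for *Bmpr1b*, -0.30 to 0.12 for *Bmpr2*, -7.57 to 1.13 for *Amhr2*, -0.43 to 0.40 for *Smad1*, -0.46 to 0.07 for *Smad2*, -0.36 to 0.21 for *Smad6*, -1.82 to 0.88 for *Grem1*, -1.59 to 2.06 for *Fstl3* and -0.36 to 0.10 for *Bambi*.

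The low counts of the *Eya1*cKO libraries limit members under about 150 reads, whose spread there was wide. *Bmp2*, *Gdf10*, *Tgfbr3*, *Smad5* and *Fstl1* passed in all 8 alternatives on 4 libraries. *Tgfb2*, *Tgfbr2*, *Acvr2b*, *Acvrl1* and *Id1* did not pass with the block, without the filter, with the legacy method or with thinned Controls, *Eng* and *Ltbp4* did not with the block alone, and *Acvr2b* also not with library totals. *Inha*, *Inhba* and *Ltbp3* passed with DESeq2. The cause of these changes was not tested.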
